A study of Mus musculus with 16 samples.

Results

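The Ebf (early B cell factor) genes encode a family of 4 transcription factors, *Ebf1*, *Ebf2*, *Ebf3* and *Ebf4*. They were taken by symbol from the deposited count table, in which they are 4 of 54838 genes. RNA was sequenced from the spleens of C57BL/6 mice in 8 size-selected samples (source labelled Spleen Glia) and 8 whole spleen samples. Each fraction holds the same 8 numbers, and male numbers 407, 408, 427 and 435 and female numbers 436, 445, 447 and 460 appear once in each. No genotype, treatment or age is given in the labels for either fraction. A size-selected sample is what a strainer retained from a spleen that had been minced, digested and freed of red blood cells. The labels carry that same text for whole spleen and describe no separate preparation for it. They also do not say whether each number is a separate animal, so p-values measure the spread between these samples, which may be technical.

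EBF proteins bind DNA as dimers through a conserved zinc-binding domain. EBF1 opens chromatin at its target genes and commits lymphoid progenitors to the B lineage together with E proteins and PAX5, and it is also made by mesenchymal stromal cells. EBF2 marks mesenchymal and brown fat precursors, EBF3 marks the reticular cells that form the bone marrow niche, and EBF4, the most divergent member, has been tied to Fas expression and cytotoxic function in human lymphocytes. The family was compared between the fractions to ask whether *Ebf1*, which serves both B cells and stroma, moved with its paralogs.

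Totals per sample ranged from 13119992 to 19944440 estimated counts in the size-selected samples and from 12153770 to 16282454 in whole spleen. In 14510 genes tested with edgeR's quasi-likelihood test, 9855 (67.9%) passed an adjusted p of 0.05 between the fractions, 5446 of them higher in the size-selected samples (37.5%) and 4409 lower (30.4%). The median log2 fold change of all genes tested was 0.05. It was 0.18 with scaling by library totals alone, a shift of all genes that applies to every difference below. The label Spleen Glia was checked against 8 glia markers. Their summed level ran from 71.2 to 612 counts per 1000000 scaled counts (CPM) in the size-selected samples and from 0.622 to 4.81 CPM in whole spleen, without overlap. The 7 past the count filter passed it only through the size-selected samples, so no count of calls is given for them. *Scn7a* averaged 59.3 CPM and *Cdh19* 20.8 CPM in the size-selected samples. *Sox10*, the defining factor of peripheral glia, was below the filter, at 3.50 ± 2.13 against 0.0768 ± 0.152 CPM (SD, n = 8 each). Endothelial markers summed to between 2239 and 6063 CPM in the same samples, against 128 to 473 CPM in whole spleen. All 8 were higher, *Plvap*, *Stab2* and *Pecam1* at the highest levels, and their median log2 fold change was 4.55; whole spleen alone would not have brought 2 of them past the count filter. RNA of several cell types was thus measured together, and in such bulk RNA fewer cells of a type and less RNA per cell cannot be told apart. The library of whole spleen number 427 stood apart in stromal genes, and log2 fold changes printed below for single genes are also given without it where it moved them by over 1.5 times.

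The 300-base windows around the RefSeq start sites (GRCm38.p6, 250 bases before to 50 after) are printed because *Ebf3* and *Ebf4* moved together and *Ebf1* moved the other way. *Ebf1* has 2 such windows, *Ebf3* and *Ebf4* 1 each. Letters in capitals mark CG dinucleotides, and each sequence reads 5′ to 3′ on the gene's own strand.
Ebf1, chr11:44617850-44618149, plus strand: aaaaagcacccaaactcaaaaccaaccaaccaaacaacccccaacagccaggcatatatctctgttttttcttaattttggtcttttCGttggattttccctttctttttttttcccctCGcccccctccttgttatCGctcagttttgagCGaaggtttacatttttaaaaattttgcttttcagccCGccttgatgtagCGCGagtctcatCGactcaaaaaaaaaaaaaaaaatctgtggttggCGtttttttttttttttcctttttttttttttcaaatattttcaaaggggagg
Ebf1, chr11:44619978-44620277, plus strand: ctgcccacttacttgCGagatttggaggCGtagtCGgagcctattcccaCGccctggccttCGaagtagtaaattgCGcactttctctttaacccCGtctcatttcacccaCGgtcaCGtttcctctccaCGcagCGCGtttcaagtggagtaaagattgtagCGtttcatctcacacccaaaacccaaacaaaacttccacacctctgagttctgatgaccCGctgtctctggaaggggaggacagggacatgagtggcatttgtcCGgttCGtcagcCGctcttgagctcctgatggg
Ebf3, chr7:137314396-137314695, minus strand: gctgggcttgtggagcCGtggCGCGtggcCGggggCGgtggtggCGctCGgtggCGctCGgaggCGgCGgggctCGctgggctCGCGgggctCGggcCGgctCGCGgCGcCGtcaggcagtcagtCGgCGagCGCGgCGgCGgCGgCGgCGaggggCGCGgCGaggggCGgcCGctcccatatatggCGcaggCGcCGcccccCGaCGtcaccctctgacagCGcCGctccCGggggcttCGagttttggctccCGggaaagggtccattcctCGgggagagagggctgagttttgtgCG
Ebf4, chr2:130295689-130295988, plus strand: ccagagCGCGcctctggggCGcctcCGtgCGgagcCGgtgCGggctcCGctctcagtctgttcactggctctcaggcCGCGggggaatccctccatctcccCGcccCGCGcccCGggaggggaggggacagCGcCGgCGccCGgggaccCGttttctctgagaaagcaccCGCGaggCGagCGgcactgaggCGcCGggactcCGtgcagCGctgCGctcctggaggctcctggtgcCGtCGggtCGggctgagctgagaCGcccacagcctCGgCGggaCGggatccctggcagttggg

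The *Ebf3* and *Ebf4* windows are dense in CG. They hold 46 and 35 CG dinucleotides at a GC content of 77.0% and 74.3%. The *Ebf1* windows hold 9 and 17 at 36.7% and 53.0%. The median of 32851 such windows was 7 CG dinucleotides and 52.7% GC. On either strand, the palindromic EBF consensus TCCCNNGGGA matched none of these 4 windows and 0.904% of all windows. Its inner part, CCCNNGGG, which every consensus match also contains, occurred once in the *Ebf3* window, 21 bases before the start site, and in 13.7% of all windows. Among 8 genes with a window in the list of EBF1 targets in B cells, *Foxo1* held the consensus and *Foxo1* and *Igll1* the inner part.

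*Ebf1* (ENSMUSG00000057098, chr11:44617317-45008091, plus strand, GRCm38) was the family member with the most RNA in both fractions. Its counts in the size-selected samples were 983, 1465, 652 and 1691 in males 407, 408, 427 and 435 and 1471, 794, 1084 and 1408 in females 436, 445, 447 and 460. In whole spleen they were 2042, 2496, 1631 and 2291 in the same males and 1921, 1808, 2161 and 2374 in the same females. Number 427 was lowest in the size-selected fraction and number 408 highest in both by CPM. After scaling, the size-selected samples ran from 46.7 to 101.4 CPM (median 69.9) and whole spleen from 124.2 to 190.4 CPM (median 146.8), so that the groups did not overlap. The means were 73.2 ± 18.3 and 149.8 ± 20.7 CPM (SD, n = 8 each). *Ebf1* was lower in the size-selected sample of all 8 pairs, and its log2 fold change was -1.03 (SE 0.14, edgeR adjusted p = 2.65e-06). A gene on the opposite strand within *Ebf1*, Gm12158, had 79 counts over all samples.

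**Figure D1:**
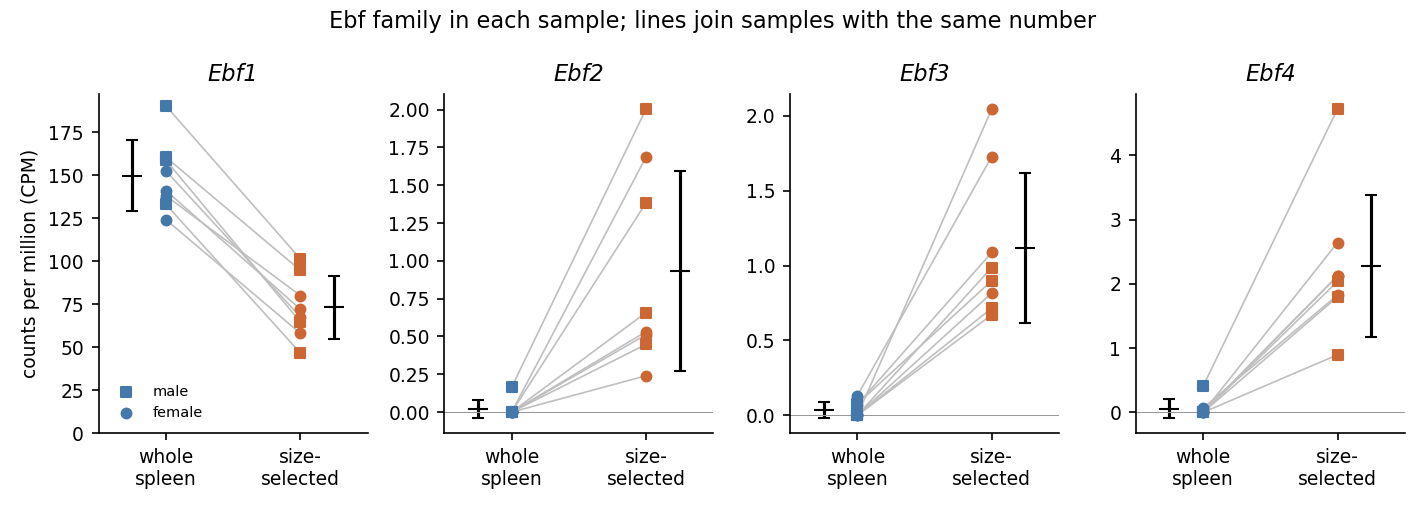
CPM of each Ebf gene in 8 whole spleen (blue) and 8 size-selected samples (orange), with squares for males, circles for females and grey lines joining samples of 1 number; black bars give the mean and SD, and each panel has its own linear axis. *Ebf1* fell in all 8 pairs, while *Ebf2*, *Ebf3* and *Ebf4* went from at most 0.408 CPM in whole spleen to between 0.24 and 4.72 CPM.

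The paralogs went the other way. *Ebf3* (ENSMUSG00000010476, chr7:137193673-137314445, minus strand) had 15, 13, 10 and 12 counts in size-selected males 407, 408, 427 and 435 and 20, 28, 26 and 17 in females 436, 445, 447 and 460. In whole spleen it had 1 count in 408, 1 in 436, 2 in 447 and 0 in the other 5 libraries. All size-selected samples lay above all whole spleen samples. The means were 1.12 ± 0.50 and 0.0348 ± 0.0512 CPM (SD, n = 8 each), and a count of 0 in a whole spleen library allows up to 3 counts, which is 0.193 to 0.245 CPM. The log2 fold change of *Ebf3* was 4.67 (SE 0.54), and it was higher in 8 of 8 pairs. No p is given for that fit, since *Ebf3* passed its count filter only through the size-selected samples, where it is high. With every gene counted at least once kept, the log2 fold change was 4.62 (SE 0.61, edgeR adjusted p = 1.51e-06). The pooled counts, 141 against 4, give a ratio of 30.5 with an exact 95% counting interval of 11.6 to 113. The deposited size-selected values of *Ebf3* are estimated counts multiplied by a constant below 1, and undoing this gave 17, 16, 12, 15, 24, 36, 33 and 22 counts in the order above and a log2 fold change of 4.94.

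*Ebf4* (ENSMUSG00000053552, chr2:130295169-130370481, plus strand) had 31, 26, 66 and 16 counts in size-selected males 407, 408, 427 and 435 and 39, 25, 32 and 55 in females 436, 445, 447 and 460. In whole spleen it had 5 counts in 427, 1 in 445 and 0 in the other 6 libraries. Number 427 was the highest in both fractions, and the groups did not overlap. The means were 2.27 ± 1.11 and 0.0596 ± 0.143 CPM (SD, n = 8 each). Its log2 fold change was 5.18 (SE 0.64), with 8 of 8 pairs higher. With every gene counted at least once kept, it was 5.11 (SE 0.67, edgeR adjusted p = 1.26e-06). As for *Ebf3*, no p is given for fits with the count filter. In such a fit without the whole spleen library of 427, the log2 fold change of *Ebf4* was 6.96 (SE 0.60). In pooled counts, 290 against 6 gives a ratio of 41.8 (exact 95% counting interval 19.0 to 115), and 290 against 1 without that library gives 223 (39.8 to 8848).

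*Ebf2* (ENSMUSG00000022053, chr14:67233292-67430918, plus strand) was too low to pass the count filter. It had 10, 20, 28 and 8 counts in size-selected males 407, 408, 427 and 435 and 31, 7, 8 and 5 in females 436, 445, 447 and 460. In whole spleen it had 2 counts, both in 427, and 0 in the other 7 libraries. The lowest size-selected sample, number 460 at 0.24 CPM, was above whole spleen 427 at 0.163 CPM. The means were 0.933 ± 0.660 and 0.0204 ± 0.0577 CPM (SD, n = 8 each), higher in 8 of 8 pairs. The pooled ratio of 117 to 2 counts was 50.6 (exact 95% counting interval 13.7 to 423). Without whole spleen 427 it was at least 30.02-fold higher, against a floor of 3 counts over the remaining whole spleen libraries, and the exact 95% counting interval of that ratio starts at 24.0. With every gene counted at least once kept, edgeR put the log2 difference of *Ebf2* at 5.10 (SE 0.78, adjusted p = 1.1e-05; 6.84 without whole spleen 427, adjusted p = 1.78e-05), and 43.5% of 28235 genes were called in that fit, 25.3% as higher. All intervals and floors cover counting error only. No other annotated gene overlapped *Ebf4*, and the opposite-strand genes within *Ebf2* and *Ebf3* had 0 counts.

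Of the 3 members past the filter, 2 were called higher and 1 lower, and of all genes tested 37.5% and 30.4% were. *Ebf3* and *Ebf4* passed the filter only through the size-selected samples, where they are high, so nothing is read from that count. Groups did not overlap for any of the 4, which was so for 34.9% of genes tested (23.3% higher, 11.6% lower). A change in 1 direction in all 8 pairs occurred in 31.3% of genes tested for higher and 22.2% for lower.

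The authors' deposited table of 2201 genes, none of them below 3.5 on the log2 scale, lists 3 of the 4. In the authors' deposited table *Ebf2* is at 5.33 (SE 0.97), *Ebf3* at 4.97 (SE 0.79) and *Ebf4* at 5.40 (SE 0.72) on the log2 scale. The mean TPM of the size-selected samples in the authors' deposited table is 0.318 for *Ebf2*, 0.468 for *Ebf3* and 1.07 for *Ebf4*, and 0.0075, 0.0075 and 0.025 for whole spleen. *Ebf1* is not among its rows.

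The direction of *Ebf1* was compared with that of each paralog past the filter as a difference in log2 CPM within a sample (prior count 2). *Ebf3* minus *Ebf1* averaged -5.92 ± 0.69 in the size-selected samples and -9.85 ± 0.42 in whole spleen (SD, n = 8 each), a rise of 3.93 that occurred in 8 of 8 pairs. *Ebf4* minus *Ebf1* averaged -5.01 ± 0.93 and -9.80 ± 0.83, a rise of 4.80 in 8 of 8 pairs. Both rises were larger than the spread of the pairs (SD 0.64 and 0.57). They are given as a description with no p, since *Ebf3* and *Ebf4* passed the filter only through the samples where they are high. Their size depends on the prior count, as the paralogs are at or near 0 in whole spleen: with a prior count of 0.5 they were 5.37 and 6.38. *Ebf4* minus *Ebf3* was 0.91 ± 0.83 against 0.05 ± 0.95. That difference of 0.87 (SD of pairs 0.81, from -0.76 to 1.56, 7 of 8 pairs higher) is given with no p for the same reason. It was 1.02 with a prior count of 0.5 (SD of pairs 1.72, 6 of 8 pairs higher) and 0.60 on restored counts.

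Per kilobase of merged exons, the size-selected samples held 7.50 ± 1.87 CPM per kb of *Ebf1*, 0.702 ± 0.342 of *Ebf4*, 0.135 ± 0.095 of *Ebf2* and 0.121 ± 0.054 of *Ebf3* (SD, n = 8). *Ebf1*, *Ebf4* and the lower genes were separated by more than their SDs, while *Ebf2* and *Ebf3* were within theirs, and the authors' deposited TPM means put *Ebf3* above *Ebf2*. In whole spleen *Ebf1* stood at 15.4 ± 2.12 CPM per kb (SD, n = 8), and the means of the others were between 0.0029 and 0.0184. As a share of the summed Ebf level per kilobase, *Ebf1* made up 99.8 ± 0.37% in whole spleen (98.9 to 100%). In the size-selected samples it made up 87.9 ± 6.86% (72.4 to 95.9%), *Ebf4* 8.99 ± 5.79%, *Ebf2* 1.64 ± 1.30% and *Ebf3* 1.51 ± 0.84% (SD, n = 8). The 2 ranges of *Ebf1* did not overlap, and it was still the most abundant member in every size-selected sample. The share of *Ebf4* was lowest in 435, at 2.74%, and highest in 427, at 22.1%.

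**Figure D2:**
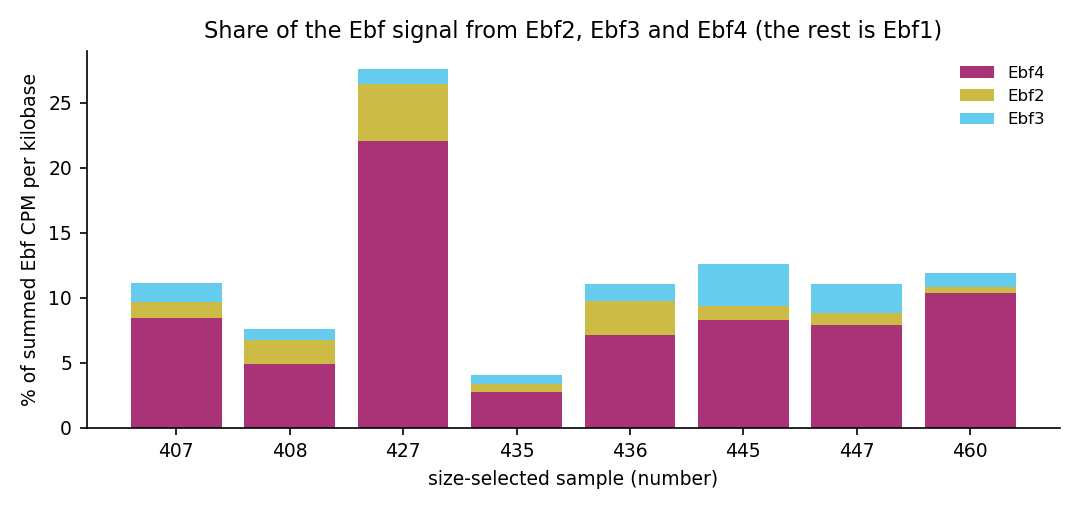
Stacked bars give the percentage of the summed Ebf CPM per kilobase that came from *Ebf4*, *Ebf2* and *Ebf3* in each of the 8 size-selected samples; the rest up to 100% is *Ebf1*, and there are no error bars because each bar is 1 sample. Number 427 stands highest, with 22.1% from *Ebf4* and 4.38% from *Ebf2*, and 435 lowest.

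Genes that EBF1 is known to activate in B cells fell with it. All 9 of the 11 listed targets that passed the filter were lower in the size-selected samples (median log2 fold change -1.19, beside 0.05 over all genes tested). *Cd79a* and *Cd79b*, the signalling chains of the B cell receptor, fell by 1.85 and 1.48 on the log2 scale. *Pax5*, which encodes the partner factor that holds B cell identity, went from 45.8 ± 17.7 to 8.18 ± 3.77 CPM (SD, n = 8 each; log2 fold change -2.48, SE 0.29, edgeR adjusted p = 4.61e-07). The surrogate light chain genes *Vpreb1* and *Igll1*, which belong to B cell precursors, were below the filter, at mean levels of at most 0.176 CPM in both fractions.

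Of 12 B cell markers not chosen as EBF1 targets, 10 were lower, none higher, and 2 did not pass (median -0.96). Their summed level ran from 919 to 3129 CPM in the size-selected samples and from 3508 to 4267 CPM in whole spleen, without overlap. *Fcmr*, the IgM Fc receptor, fell by 1.31 on the log2 scale, *Cxcr5*, the receptor for the follicular chemokine CXCL13, by 1.00, and *Ms4a1*, which encodes CD20, by 0.70. *Cr2*, which encodes the complement receptor CD21 and is also made by follicular dendritic cells, was at 204 ± 78.5 and 198 ± 65.7 CPM (SD, n = 8 each), and did not pass. *Cd22*, an inhibitory B cell receptor, was at 82.4 ± 38.2 and 119 ± 50.4 CPM and did not pass, though it did in 5 of 20 alternatives, the pairing by number among them (log2 fold change -0.54, edgeR adjusted p = 0.0303).

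Within each sample, *Ebf1* was set against the mean log2 CPM of these lists. *Ebf1* minus the B cell markers was -0.83 ± 0.26 in the size-selected samples and -0.73 ± 0.16 in whole spleen (SD, n = 8 each). The difference of -0.10 was smaller than the spread of the pairs (SD 0.36, from -0.42 to 0.63, 2 pairs higher and 6 lower, exact two-sided permutation p = 0.361). Leaving out number 427 changed this call: the difference was then -0.21 (exact permutation p adjusted over both lists = 0.042). With *Cr2* left out of the list it was -0.0124 (adjusted exact permutation p = 0.915). Against the EBF1 targets, *Ebf1* fell less. *Ebf1* minus the targets was -0.69 ± 0.29 and -1.12 ± 0.10, a difference of 0.42 (SD of pairs 0.34) found in 8 of 8 pairs (exact permutation p = 0.000466, adjusted over both lists 0.000932). On restored counts it was 0.29 in 7 of 8 pairs (adjusted exact permutation p = 0.0206). *Cd79a*, *Pax5*, *Blk* and *Vpreb3* carry a constant in the deposited values. With deposited counts and exchanges only within pairs, the exact permutation p was 0.00781 for the targets (adjusted over both lists 0.0156). It was 0.445 for the B cell markers.

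Lymphocyte genes outside the B lineage were also lower. Of 8 T cell markers, 7 were lower (median -1.57), led by level by *Cd3e*, *Trac* and *Lck*, and *Cd4*, at 71.9 ± 11.5 and 58.6 ± 14.6 CPM (SD, n = 8 each), did not pass, though it did as higher in 6 of 20 alternatives, the pairing by number among them (log2 fold change 0.32, edgeR adjusted p = 0.0371). Of 10 cytotoxic lymphocyte genes, listed because of the role of EBF4, 9 were lower (median -1.35) and 1 was higher. *Gzma*, *Nkg7* and *Prf1*, which serve the granule killing machinery, fell by 1.67, 2.05 and 1.00 on the log2 scale. *Fas*, the death receptor gene, was the exception, at 34.7 ± 8.5 against 11.3 ± 2.29 CPM (SD, n = 8 each; log2 fold change 1.62, edgeR adjusted p = 1e-07). The part of *Ebf4* in these differences was not tested. Erythroid markers varied widely among samples, with sums from 286 to 13752 CPM in whole spleen. *Hba-a1*, *Hbb-bs* and *Klf1* were lower (the size-selected samples alone would not have brought *Klf1* past the filter, nor the cytotoxic gene *Ncr1*) and the other 5 of 8, *Slc4a1* among them, did not pass (median -1.45); with samples paired by number all 8 were lower, and on restored counts *Hbb-bs* did not pass (edgeR adjusted p = 0.0554).

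**Figure D3:**
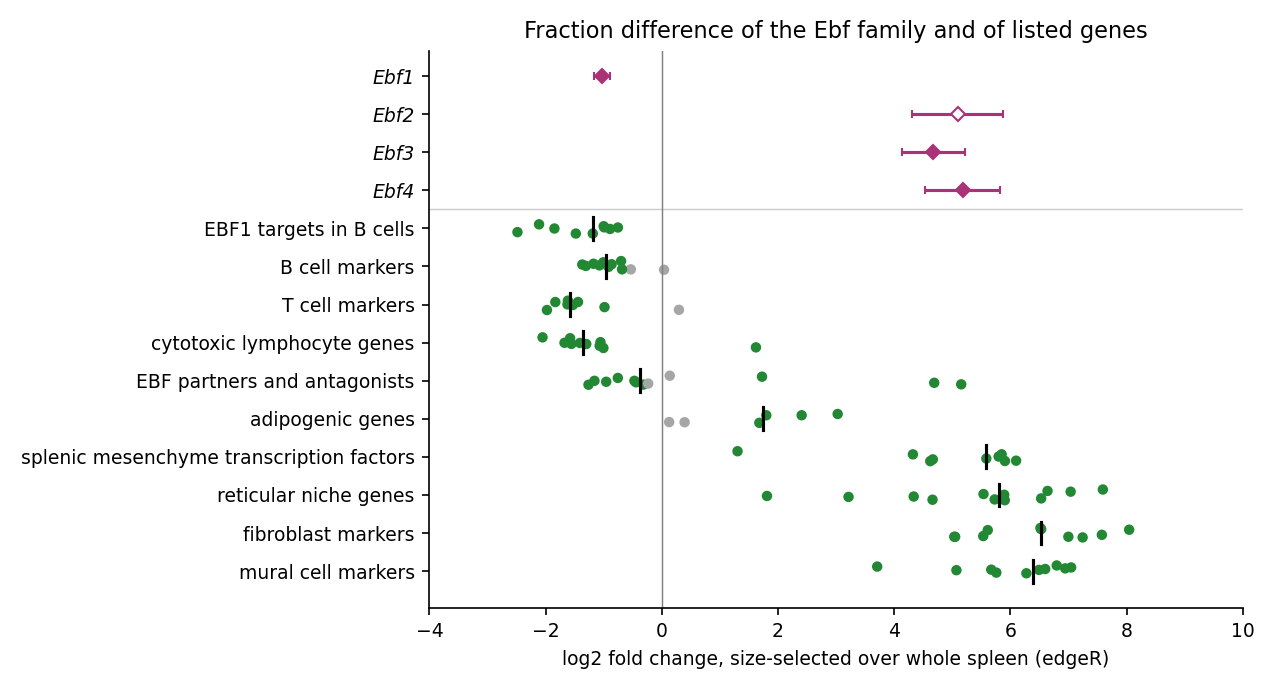
Log2 fold changes of size-selected over whole spleen from edgeR, with the 4 Ebf genes as diamonds with SE bars (*Ebf2*, open, from the fit without a count filter) and 1 point per listed gene past the filter below the grey line, green where adjusted p was under 0.05 and grey otherwise; black ticks are list medians. *Ebf1* at -1.03 sits in the range of the B and T cell lists, and *Ebf2*, *Ebf3* and *Ebf4*, from 4.67 to 5.18, in the ranges of the mesenchyme, niche and mural lists, and of the endothelial markers (2.12 to 5.80, not plotted); *Ebf3*, at 4.67, is below the lowest fibroblast marker, *Fbln1* at 5.03.

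Stromal genes rose along with the 3 paralogs. All 12 reticular niche genes were higher (median 5.81), among them *Cxcl12*, the chemokine that retains haematopoietic and B lineage cells, at 805 ± 340 against 6.17 ± 5.17 CPM (SD, n = 8 each; log2 fold change 7.04). *Vcam1*, an adhesion molecule also made by macrophages, rose by 1.81 on the log2 scale and the lymphoid chemokine gene *Ccl21a* by 5.89 (6.56 without whole spleen 427). All 10 fibroblast markers were higher (median 6.52), with *Col3a1*, *Col1a2* and *Dcn*, genes of the collagen matrix, at the highest levels. All 10 mural cell markers, the genes of pericytes and smooth muscle, were higher (median 6.38), with *Acta2*, *Tagln* and *Des* at the highest levels. Whole spleen alone would not have brought 6 of the 12 niche genes, 8 of the 10 fibroblast markers and 5 of the 10 mural markers past the count filter, so these counts and medians are partly fixed by it. The levels of B cell and stromal markers thus moved with the Ebf genes between the fractions, and their part in the Ebf differences was not tested.

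Transcription factors of the spleen's mesenchyme rose as well. Of 10 listed, 9 passed the filter and all 9 were higher (median 5.59), 7 of which whole spleen alone would not have brought past it, so that count too is partly fixed by the filter; *Meox2* was below it. *Tcf21*, *Nkx2-3* and *Tlx1*, factors of spleen development, rose by 5.85, 4.62 and 5.91 on the log2 scale, and *Tlx1* by 6.61 without whole spleen 427. In the adipogenic list, drawn up for the role of EBF2 in fat, 6 of 10 passed the filter and 4 were higher (median 1.74). Whole spleen alone would not have brought 1 of these 4 past the filter. Among the 4 were *Lpl*, which encodes lipoprotein lipase, by 1.68, the fatty acid carrier gene *Fabp4* by 1.80 and *Prdm16*, a brown fat regulator, by 3.03 on the log2 scale. *Pparg*, the adipocyte master factor, was at 12.9 ± 3.81 and 11.8 ± 3.04 CPM (SD, n = 8 each) and did not pass. *Cebpb*, a factor of early fat cell development, was at 420 ± 146 and 319 ± 61.6 CPM and did not pass, though it did in 7 of 20 alternatives, the pairing by number among them (log2 fold change 0.35, edgeR adjusted p = 0.0334). The genes of mature fat cells *Adipoq*, *Plin1* and *Ucp1* were at or below 0.124 CPM in both fractions. *Cidea*, a gene of brown fat, was also below the filter, at 1.13 ± 0.61 against 0.103 ± 0.141 CPM (SD, n = 8 each), higher in 8 of 8 pairs (log2 fold change 3.27, edgeR adjusted p = 0.000299 in the fit without a filter).

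Genes whose products bind EBF proteins or their partners moved in both directions. Of 12, 3 were higher, 7 lower and 2 did not pass (median -0.38; with scaling by library totals alone, 4 were higher, *Tcf3* among them, and 4 lower). *Zfp423* and *Zfp521*, zinc finger proteins that bind EBF1 and block its activity, went from 0.283 ± 0.560 to 9.80 ± 2.77 CPM and from 0.779 ± 0.286 to 20.4 ± 6.59 CPM (SD, n = 8 each), log2 fold changes of 5.15 and 4.69. Without whole spleen 427, the log2 fold change of *Zfp423* was 6.63. Whole spleen alone would have brought neither past the filter. *Id3*, an inhibitor of the E proteins that act beside EBF1, rose by 1.73 on the log2 scale. The lymphoid factor genes *Ikzf1*, *Ikzf3* and *Bcl11a* fell by 1.26, 0.96 and 1.16 and *Spi1*, which encodes PU.1, by 0.76. *Id3* and all of these factor genes carry a constant in the deposited values. On restored counts the log2 fold change was 2.10 for *Id3*, -1.01 for *Ikzf1*, -0.71 for *Ikzf3*, -0.91 for *Bcl11a* and -0.51 for *Spi1*. *Id2*, which encodes another inhibitor of E proteins, was at 410 ± 81.1 and 482 ± 74.4 CPM (SD, n = 8 each) and did not pass (log2 fold change -0.23), but was called lower without number 427 (-0.30, edgeR adjusted p = 0.0456). *Tcf3*, which encodes the E proteins E12 and E47, was at 106 ± 6.08 and 96.2 ± 15.2 CPM (SD, n = 8 each) and did not pass, but was called higher with library totals (log2 fold change 0.26, edgeR adjusted p = 0.0384).

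Among the 8 size-selected samples, the members were then compared with list scores, the mean log2 CPM of a list. Over both fractions, 24 correlations were computed, each within 1 fraction, and their p-values were adjusted together. Only the B cell, fibroblast, reticular niche and mural lists were used, so a relation particular to 1 cell type is not shown. In the size-selected samples, T cell markers were also lowest in 427 (3.73) and highest in 435 (5.98). Endothelial markers were highest in 427 (8.10) and lowest in 408 (6.75). *Ebf1* was higher where B cell markers were higher (Pearson r = 0.90, permutation p = 0.00265, adjusted 0.0382; Spearman rho = 0.76, permutation p = 0.0368). Without the 2 samples farthest from the median score, 427 and 435, r was 0.77 (permutation p = 0.0819). *Ebf1* was lower where mural cell markers were higher (r = -0.86, permutation p = 0.00637, adjusted 0.0382; rho = -0.74, permutation p = 0.0458), with r = -0.64 (permutation p = 0.165) without 408 and 435.

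For *Ebf4* the signs were the opposite. It was higher where reticular niche genes were higher (r = 0.91, permutation p = 0.00367, adjusted 0.0382; rho = 0.74, permutation p = 0.0458), and r was 0.59 (permutation p = 0.206) without 435 and 427. It was lower where B cell markers were higher (r = -0.90, permutation p = 0.00538, adjusted 0.0382; rho = -0.83, permutation p = 0.0154), and r was -0.56 (permutation p = 0.268) without 427 and 435. With those pairs of samples left out, all 4 relations kept their sign and none passed. Fewer samples and a narrower range of scores also weaken a relation, so whether the calls rest on those samples is not shown. Without number 427 alone r was 0.83 and -0.81 for *Ebf1* and 0.83 and -0.76 for *Ebf4*, in the order above, each with an adjusted permutation p of 0.168. *Ebf3* had r between -0.12 and 0.01 with the 4 lists in the size-selected samples, but -0.61 with B cell markers without number 427 (permutation p = 0.126, adjusted 0.504). In whole spleen, *Ebf1* had r = 0.53 with B cell markers (permutation p = 0.174, adjusted 0.348; rho = 0.48, permutation p = 0.243). That r was 0.25 with library totals and 0.74 without 427 (permutation p = 0.0492, adjusted 0.236), and none of the 12 whole spleen relations passed.

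**Figure D4:**
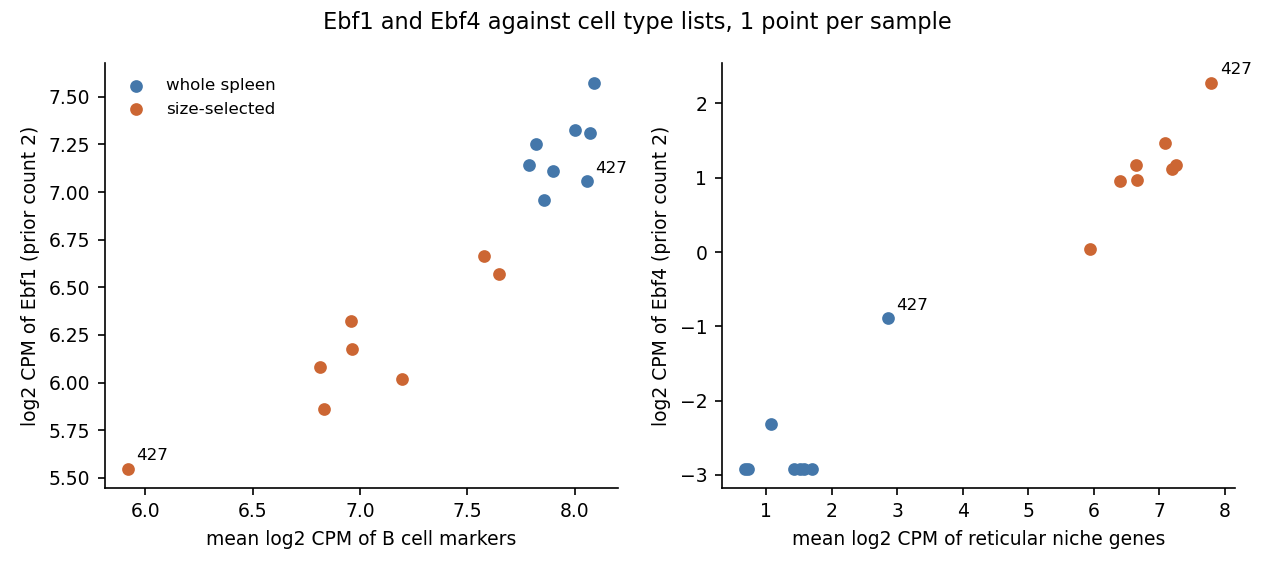
Log2 CPM (prior count 2) of *Ebf1* against the mean log2 CPM of B cell markers, and of *Ebf4* against that of reticular niche genes, 1 point per sample, orange for size-selected and blue for whole spleen, on linear axes of log2 values. Within the 8 size-selected samples r was 0.90 and 0.91; number 427 is at the end of both orange clouds and, in whole spleen, above the other 7 samples in both *Ebf4* and the niche genes.

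The genes most like each member across the 8 samples of a fraction were ranked by Pearson's r of log2 CPM, among those whose mean log2 CPM reached 3 (10103 or more in the size-selected samples). For *Ebf1* in the size-selected samples they were *Def6*, *Ppp6r1* and *Supt5* (r from 0.97 to 0.98), and in whole spleen Gm37248, *Cxxc5* and 5830444F18Rik (r from 0.95 to 0.98). For *Ebf4* they were *Hoxa5*, *Gata2* and *Mdfic* (r from 0.97 to 0.98), and for *Ebf3* they were *Tgif2*, *Mrps27* and *Auh* (r = 0.94 each). Between the fractions, *Hoxa5*, *Gata2* and *Mdfic* had log2 fold changes of 4.43, 3.02 and 0.89, all called higher. Of the genes closest to *Ebf3*, *Tgif2* was called higher (0.27), and *Mrps27* (0.04) and *Auh* (-0.01) did not pass. Of those closest to *Ebf1* in the size-selected samples, *Def6* was called lower (-1.63), and *Ppp6r1* (0.21) and *Supt5* (-0.20) did not pass. In whole spleen the same ranking gave Gm15459, *Pou2f2* and *Ccdc58* for *Ebf3* and *Ighv5-17*, *Pecam1* and *Slc9a9* for *Ebf4*, but these rest on 4 and 6 counts. No p is given for these ranks, since each r is among the 3 highest of at least 8844 genes at 8 points.

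Males and females did not differ detectably in any member tested. In whole spleen, *Ebf1* averaged 139.0 ± 11.6 CPM over the females and 160.7 ± 23.4 over the males (SD, n = 4 each; log2 difference -0.21, SE 0.12, edgeR adjusted p = 0.398), where 0.194% of 13383 genes were called. Those 26 calls ranged from 7 to 261 without 1 number and were 521 with DESeq2, and 2149 genes were at an unadjusted p under 0.05. In the size-selected samples it averaged 69.5 ± 9.18 CPM over the females and 76.9 ± 25.7 over the males, and *Ebf4* at 2.18 ± 0.34 and 2.37 ± 1.65 CPM (SD, n = 4 each). *Ebf3* was at 1.42 ± 0.57 CPM in the 4 females and 0.819 ± 0.149 CPM in the 4 males, a log2 difference of 0.75 (SE 0.40, edgeR adjusted p = 0.999), where 0.0397% of 15127 genes were called. The ranges of males and females overlapped for all 4 genes in both fractions. The fraction difference did not depend detectably on sex. edgeR's interaction term passed for 0 of the 3 members and for 0 of 15760 genes (0.0%), with 0 members and 744 genes at an unadjusted p under 0.05; DESeq2 called 3 genes (0.019%) and no member. The interaction was 0.06 (SE 0.28) for *Ebf1*, -0.33 (SE 0.85) for *Ebf3* and 1.96 (SE 1.51) for *Ebf4*. None of these signs held when single numbers were left out: *Ebf4* was at -1.16 without 427, *Ebf1* at -0.0474 without 427, and *Ebf3* ran from -2.02 to 0.48.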

How the data were processed

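Estimated counts per gene were deposited for all 16 samples. Per the submitters' processing notes, Trim Galore, STAR, RSEM, DESeq and mm10 were used; versions, order and annotation are not given in the sources used here. For 3898 of 54838 genes (*Ebf3* among them), estimated counts deposited for size-selected samples are 2-decimal values multiplied by constants below 1, found from the values. Dividing by them gave the restored counts. Values are from the deposited counts unless restored counts are named. The authors' second table holds, per the file headers, a mean signal per gene, log2 fold changes with their standard errors, a test score, p-values, and mean TPM and FPKM values per group (the deposited FPKM, signal and score were not analysed here).

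Estimated counts were rounded, filtered with filterByExpr (minimum count 10), scaled by TMM and tested with edgeR 4.0.16 in R 4.3.3, with the fraction as the only term and Benjamini-Hochberg adjustment over all genes (threshold 0.05). CPM use TMM-scaled totals, and log2 CPM a prior count of 2. Exact permutation tests, two-sided, enumerated every assignment of the 16 samples to 2 groups of 8, and correlations all pairings. The paired version exchanged samples only within a number, in 256 patterns. Counting intervals are exact (Clopper-Pearson on the pooled counts). Gene positions and merged exon lengths come from GENCODE M21 (GRCm38), promoter windows from RefSeq (3 of the 4 members matched).

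Samples of 1 number deviated together from their group means (mean r = 0.208, from 0.12 to 0.375 over the 8 numbers, against -0.029 between different numbers, over 14510 genes), so the numbers were taken to pair the samples; the number comes from the sample titles.

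Alternatives were DESeq2 1.42.0, limma-voom (limma 3.58.1), RLE or library-total scaling, count filters of 30 or none, a replicate block, sex as a covariate or 1 sex, restored counts, another prior count, and leaving out each number or whole spleen 427. Chosen after seeing the data were the other settings for *Ebf2* without a filter, the B cell list without *Cr2* and the correlations without 427. The fits and the search for constants were tested on simulated data. Named genes are the members, the 3 genes of each list with the highest mean CPM and those called against most of their list, and the 3 genes most like each member in each fraction, except 2 genes not reported here; any other name was picked with its values in view. Members and lists were chosen with earlier results of these data known.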

Additional observations from a re-analysis of the deposited data

Results flagged for a closer look

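Of 44 groups of 8 values examined (in each fraction, the 4 members, 13 list scores, 3 differences between members and 2 between *Ebf1* and a list), 4 had a sample far from the others, where chance gives about 1 in 20, or 2.2; all 4 concern number 427. Whole spleen 427 was the highest whole spleen sample in *Ebf2*, at a log2 CPM of -1.76 while the other 7 were at -2.91. It was the highest in *Ebf4*, at -0.887 with the others from -2.91 to -2.31, and in the reticular niche genes, at a mean log2 CPM of 2.86 with the others from 0.68 to 1.70. The size-selected sample of 427 was the lowest in T cell markers, at a mean log2 CPM of 3.73 with the others from 4.92 to 5.98.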

How the results depend on the processing

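The fraction differences of *Ebf1* (-1.13 to -0.89), *Ebf3* (4.19 to 5.15) and *Ebf4* (4.42 to 6.96) kept their direction and their call under every alternative run that could test them. *Ebf2*, fitted without a count filter, did so (4.76 to 6.84) with the replicate block, restored counts, library totals, without whole spleen 427 and without each number; its other alternatives were not run. Fits with a count filter tested *Ebf3* and *Ebf4* only through the size-selected samples, so nothing is read from those calls. A minimum count of 30 left only *Ebf1* to test, and the fit of males alone did not test *Ebf3*. With the replicate block they were -1.06, 4.75, 5.48 and 5.27, and the block changed no call of a member; the listed genes it changed are given above. *Ebf4* minus *Ebf3*, given without a p, was 0.87 with it. Leaving out a number, that difference ran from 0.77 to 1.10, and *Ebf1* minus B cell markers from -0.21 to -0.0564. Counts of genes called between the sexes in whole spleen moved from 26 to 521 with DESeq2, 44 with a minimum count of 30, 273 without a filter and 7 to 261 without 1 number. In the size-selected samples they moved from 6 to 22 with DESeq2, and for the interaction from 0 to 3 with DESeq2, 3 with the replicate block and 0 to 1 without 1 number. Sex estimates that were not called changed sign. *Ebf4* in size-selected samples went from -0.10 to 0.13 with limma-voom and ranged from -0.37 to 0.42 without 1 number. The interaction went to -0.0189 for *Ebf1* with library totals (-0.0474 to 0.17 without 1 number), to 0.23 for *Ebf3* with limma-voom (-2.02 to 0.48) and ranged from -1.16 to 3.65 for *Ebf4*. With library totals the 4 correlations that passed were 0.92, -0.85, -0.88 and 0.89, with adjusted permutation p from 0.059 to 0.0618. Without 427 they were 0.83, -0.81, -0.76 and 0.83. Correlations near 0 changed sign: *Ebf3* with B cell markers (0.0311 with library totals), with mural cell markers (-0.0724 with library totals, -0.0099 on restored counts), and without 427 with fibroblast (0.0858) and niche genes (0.17), and whole spleen *Ebf1* without 427 with fibroblast (0.29), niche (0.34) and mural genes (0.30). Larger ones also turned: without 427, whole spleen *Ebf4*, which rests on 6 counts, went from 0.59 to -0.51 with fibroblast, 0.76 to -0.17 with niche, 0.76 to -0.23 with mural and 0.28 to -0.27 with B cell genes. Of 121 listed genes tested between the fractions, 109 were called, 93 of them under every alternative that tested them (a minimum count of 30 did not test 3 of them, *Pdpn*, *Wt1* and *Twist1*). The other 16 lost their call in a fit of 1 sex, and *Tcf12*, *Runx1*, *Cbfb* and *Hbb-bs* also elsewhere. None of the 109 changed sign. Uncalled genes that did were *Cr2* (-0.0128 without a filter, -0.0117 on restored counts, -0.138 in males, -0.0813 to 0.234 without 1 number), *Tcf3* (-0.0178 in females) and *Pparg* (-0.108 in males). The cause of these moves was not tested. Depth limits *Ebf2*, *Ebf3* and *Ebf4* in whole spleen, where each has 2 to 6 counts in all.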
